A study of Rattus norvegicus with 9 samples.

Results

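A set of 6 lysosome genes, out of the 17109 obtained by summing transcript values under one symbol, were followed through the lung macrophages of rats exposed to nitrogen mustard (NM). They were Tfeb, which encodes a transcription factor of lysosomal genes; Lamp1 and Lamp2, which encode the main glycoproteins of the lysosomal membrane; and Hexa, Tpp1 and Man2b1, which encode hydrolases of the lysosomal lumen. The members were found by their RefSeq transcripts, and each of the 6 had 1 transcript row. NM (mechlorethamine) is an alkylating agent, and it or phosphate-buffered saline (PBS) was instilled into the trachea of male Wistar rats weighing 225 to 250 g. The NM dose was 0.125 mg/kg. Alveolar macrophages, the phagocytes of the air spaces, were collected 1 day or 28 days after NM, and the time at which the PBS rats were sampled was not given in the sources used here. RNA was sequenced in 3 biological replicates for each of the 3 groups, numbered 0, 1 and 2 (libraries are written PBS_0, NM1d_0, NM28d_0 and so on), so p-values measure the spread between those replicates. No animal in any group was described as genetically altered.

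Lysosomes are acidic organelles in which macrophages digest what they engulf, including surfactant, dead cells and lipid. TFEB belongs to the MiT/TFE family of transcription factors, which is held in the cytoplasm when the kinase mTORC1 is active at the lysosomal surface. When released it enters the nucleus and binds a palindromic E-box, CACGTG, in the promoters of lysosomal and autophagy genes. Because TFEB is governed largely by phosphorylation, its transcript level does not report its activity.

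The promoters of Lamp1, Lamp2 and Tpp1 are shown because they differ in the E-box letters that TFEB is known to read, while the genes belong to the same organelle. Each window runs from 250 bases before to 50 after the start site in RefSeq's GRCr8 assembly, on the minus strand, and is printed 5′ to 3′ in the direction of the gene. Capitals mark CACGTG, and also CATGTG on either strand (the M-box hexamer of the MITF family, printed as CACATG where it lies on the other strand); the hexamers do not overlap one another. The windows are chr16:83075014-83075313 for Lamp1, chr1:169515890-169516189 for Tpp1 and chrX:122087624-122087923 for Lamp2.
Lamp1: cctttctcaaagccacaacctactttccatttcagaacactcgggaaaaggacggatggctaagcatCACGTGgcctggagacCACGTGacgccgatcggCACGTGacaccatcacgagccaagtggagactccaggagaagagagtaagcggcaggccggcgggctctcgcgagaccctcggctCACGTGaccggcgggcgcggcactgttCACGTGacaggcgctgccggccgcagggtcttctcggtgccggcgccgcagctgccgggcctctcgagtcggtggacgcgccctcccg
Tpp1: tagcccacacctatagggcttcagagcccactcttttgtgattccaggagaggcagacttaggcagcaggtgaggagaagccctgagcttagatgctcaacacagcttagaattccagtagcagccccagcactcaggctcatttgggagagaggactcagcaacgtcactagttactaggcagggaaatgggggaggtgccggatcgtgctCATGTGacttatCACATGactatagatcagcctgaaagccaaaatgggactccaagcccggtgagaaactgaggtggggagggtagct
Lamp2: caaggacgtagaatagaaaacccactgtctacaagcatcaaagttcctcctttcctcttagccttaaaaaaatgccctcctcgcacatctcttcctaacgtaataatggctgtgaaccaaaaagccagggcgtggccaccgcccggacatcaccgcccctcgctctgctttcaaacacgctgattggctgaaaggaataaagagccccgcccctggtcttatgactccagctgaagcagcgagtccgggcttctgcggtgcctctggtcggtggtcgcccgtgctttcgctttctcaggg

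The Lamp1 window held 5 copies of CACGTG, with first bases at -183, -167, -150, -65 and -38 from the start site. Of 33469 promoter windows in the table, 2148 (6.42%) held at least 1 copy, 174 (0.52%) held at least 2, and 1, that of Lamp1, held 5. In 2 of the 5 copies the match extended to TCACGTGA, found in 0.777% of all windows. The Tpp1 window held no CACGTG but 2 copies of CATGTG, starting at -38 and -26, and 14.0% of all windows held at least 1. The windows of Lamp2, Tfeb and Man2b1 held neither hexamer, and 5 of the 6 members had a window. These matches describe letters only. The motifs were chosen after the sequences had been seen.

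**Figure D1:**
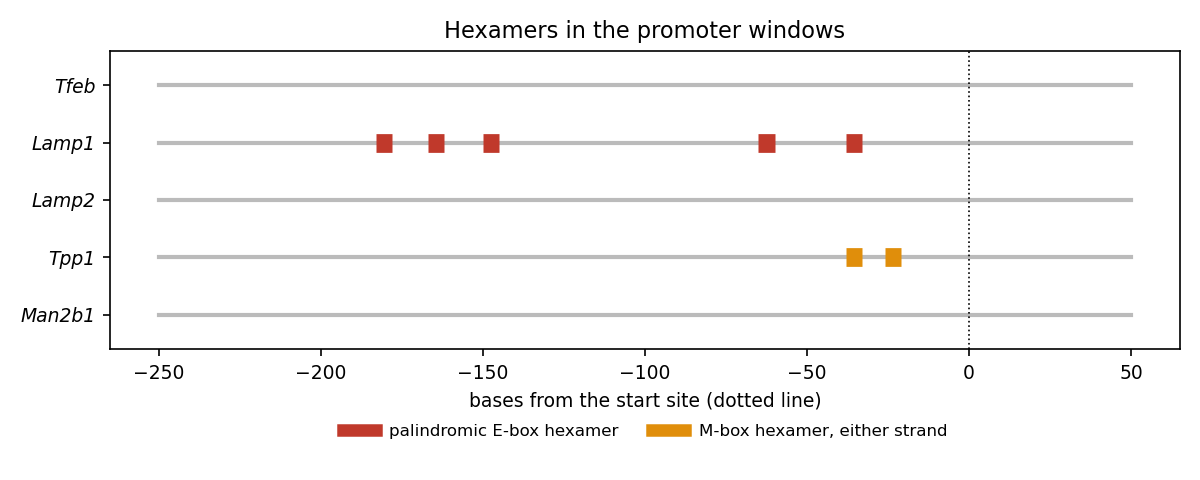
Positions of the palindromic E-box hexamer (red) and of the M-box hexamer on either strand (orange) in the 5 promoter windows, with distance from the start site in bases on the horizontal axis. Lamp1 carries 5 E-box copies, Tpp1 carries 2 M-box copies, and the windows of Tfeb, Lamp2 and Man2b1 are empty.

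The files gave FPKM (fragments scaled to transcript length and library size) with no fragment counts, so absolute depth was unknown. The commonest ratio of low FPKM values between libraries put the relative depth of the PBS libraries at 1.42 to 2.58 times that of NM1d_0, with the other NM libraries at 1.04 to 1.47. Summed FPKM ran from 789477 to 969540 in PBS, from 709397 to 776058 at day 1 and from 713358 to 845425 at day 28. Macrophage markers were present, led by Cd68, although Marco and Adgre1 were listed at 0 throughout. The summed level of the 9 in the files was 1599 to 2960.1 FPKM in PBS, 1577 to 1814 at day 1 and 1867 to 2072 at day 28. Of the 7 tested, Pparg was called lower and Car4 higher than in PBS at day 1. At day 28 Mrc1 was called lower and Car4 higher. Markers of other cells were also present: the summed level of 10 neutrophil markers was 85.7 to 119 FPKM in PBS, 555 to 982 at day 1 and 243 to 725 at day 28. That of 15 alveolar epithelial markers was 244 to 415, 1047 to 3108 and 280.3 to 389.6 FPKM, and that of 10 monocyte markers 80.4 to 85.5, 219.8 to 294 and 162 to 222 FPKM, with Ccr2 and Ly6c at 0 in PBS. That of 11 T and natural killer cell markers was 19.1 to 23.4, 93.98 to 99.03 and 20.6 to 33.9 FPKM. Airway epithelial markers (5) moved the other way, at 1257, 7693 and 6243 FPKM in PBS_0, PBS_1 and PBS_2, 1239 to 2993 at day 1 and 765 to 1194 at day 28, with 1 of 5 called lower at day 1 and 3 of 5 at day 28. At day 1, 4 of 8 tested T and natural killer cell markers, 5 of 8 neutrophil markers, 9 of 14 alveolar epithelial and 7 of 9 monocyte markers were called higher than in PBS. These levels moved with the groups compared, and their part in the results was not tested. In bulk RNA, fewer macrophages in the sample and less of a transcript per macrophage cannot be told apart. Some libraries were often the extreme of their group: NM28d_1 was the lowest of its group for Tfeb, Lamp1, Hexa and Tpp1 and the highest for Lamp2 and Man2b1, PBS_0 was the highest for 4 members and the lowest for Tfeb and Man2b1, and NM1d_0 was the lowest for 5.

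In the PBS macrophages all 6 genes were well expressed, with mean FPKM placing Lamp1 at rank 121 of the 9885 genes tested, Hexa at 322, Man2b1 at 397, Lamp2 at 425, Tpp1 at 671 and Tfeb at 812. Lamp1 stood clear of the rest: its lowest PBS library lay above the highest for Hexa. Below it the order of mean FPKM was Hexa, Man2b1, Lamp2, Tpp1 and Tfeb, and each neighbouring pair overlapped between libraries. At day 1 the order was Lamp1, Lamp2, Man2b1, Hexa, Tpp1 and Tfeb, in which Lamp2, Man2b1 and Hexa overlapped as neighbours. At day 28 Lamp1 was again first and Tfeb last, with Tpp1 apart from both of its neighbours and Man2b1, Hexa and Lamp2 overlapping between them.

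The first comparison asked how these genes differed 1 day after NM. Of the 6, 5 were lower than in PBS: Tfeb, Lamp1, Hexa, Tpp1 and Man2b1, at 46.0% to 68.7% of their mean PBS level. Lamp2 was at 89.8% and did not pass. A gene was called when its Benjamini-Hochberg adjusted p from limma, over all 9885 genes, was under 0.05. Of all genes tested, 4.58% were called lower and 5.28% higher, and 0 of the 6 members were called higher. The members were chosen with earlier results of these data known, so setting their count beside these shares is a description and no test. The groups did not overlap for the same 5 genes, against 18.1% of all genes with every day 1 library below every PBS library. In all 10 alternative ways of processing the data 3 members were called, Tfeb and Hexa in every one; Lamp1 was the third in all but the fit without a filter, where Man2b1 took its place. Leaving out 1 library gave 0 members without PBS_1 or NM1d_0, 1 without PBS_0, 2 without NM1d_1 or NM1d_2, and 3 without NM28d_0 or NM28d_2, which enter only through the shared estimate of spread.

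Tfeb, the transcription factor, had 117, 163 and 130.1 FPKM in the PBS libraries, 50.4, 67.6 and 70.4 at day 1, and 128, 69.1 and 129 at day 28. Every day 1 library lay below every PBS library, and at day 28 replicate 1 sat among the day 1 values while the other libraries sat within the PBS range. The mean went from 136 ± 23.6 in PBS to 62.8 ± 10.9 FPKM at day 1 (SD, n = 3), a log2 fold change of FPKM + 1 of -1.11 with a standard error of 0.24 (limma, adjusted p = 0.0158). The call ended without PBS_1 (adjusted p = 0.0758 by limma) or without NM1d_0 (0.0886). The other members of the family were not called at day 1: Tfe3 had 22.3 ± 3.83 against 24.9 ± 1.08 FPKM, Mitf 44.1 ± 3.96 against 54.05 ± 7.66, and Tfec 20.1 ± 7.1 against 16.7 ± 2.67 (SD, n = 3; adjusted p = 0.59, 0.277 and 0.648 by limma). Tfeb had the highest level per length of the 4 family members in PBS, and its day 1 mean still lay above theirs.

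Lamp1, whose glycoprotein lines the inner face of the lysosomal membrane, had 1335, 1153 and 863 FPKM in PBS, 485, 663 and 598 at day 1, and 788, 460.4 and 710.3 at day 28. All 6 NM libraries lay below the lowest PBS library. The mean went from 1117 ± 238 to 582 ± 90.1 FPKM at day 1 (SD, n = 3), a log2 fold change of -0.93 with a standard error of 0.24 (limma, adjusted p = 0.0308). The call ended when any one of PBS_0, PBS_1, NM1d_0, NM1d_1 or NM1d_2 was left out (adjusted p from 0.0568 to 0.148), and without a filter on low values (0.0556).

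Lamp2 encodes the related membrane protein, a splice form of which also serves as the receptor of chaperone-mediated autophagy. It had 327, 284 and 170.2 FPKM in PBS, 201, 268 and 232 at day 1, and 256, 270.2 and 219.7 at day 28. The groups overlapped, and the PBS libraries alone spanned the values of both NM groups. The log2 fold change at day 1 was -0.11 (95% interval -0.60 to 0.38, adjusted p = 0.805 by limma). A fall as large as the estimate for Lamp1 lay outside the interval, and a fall as large as that for Man2b1 (-0.54) lay inside. The interval overlapped that of Lamp1 (-1.45 to -0.41). The Lamp2 estimate was positive after quantile normalisation (0.11) and without PBS_0 (0.08), and it was -0.39 without PBS_2.

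**Figure D2:**
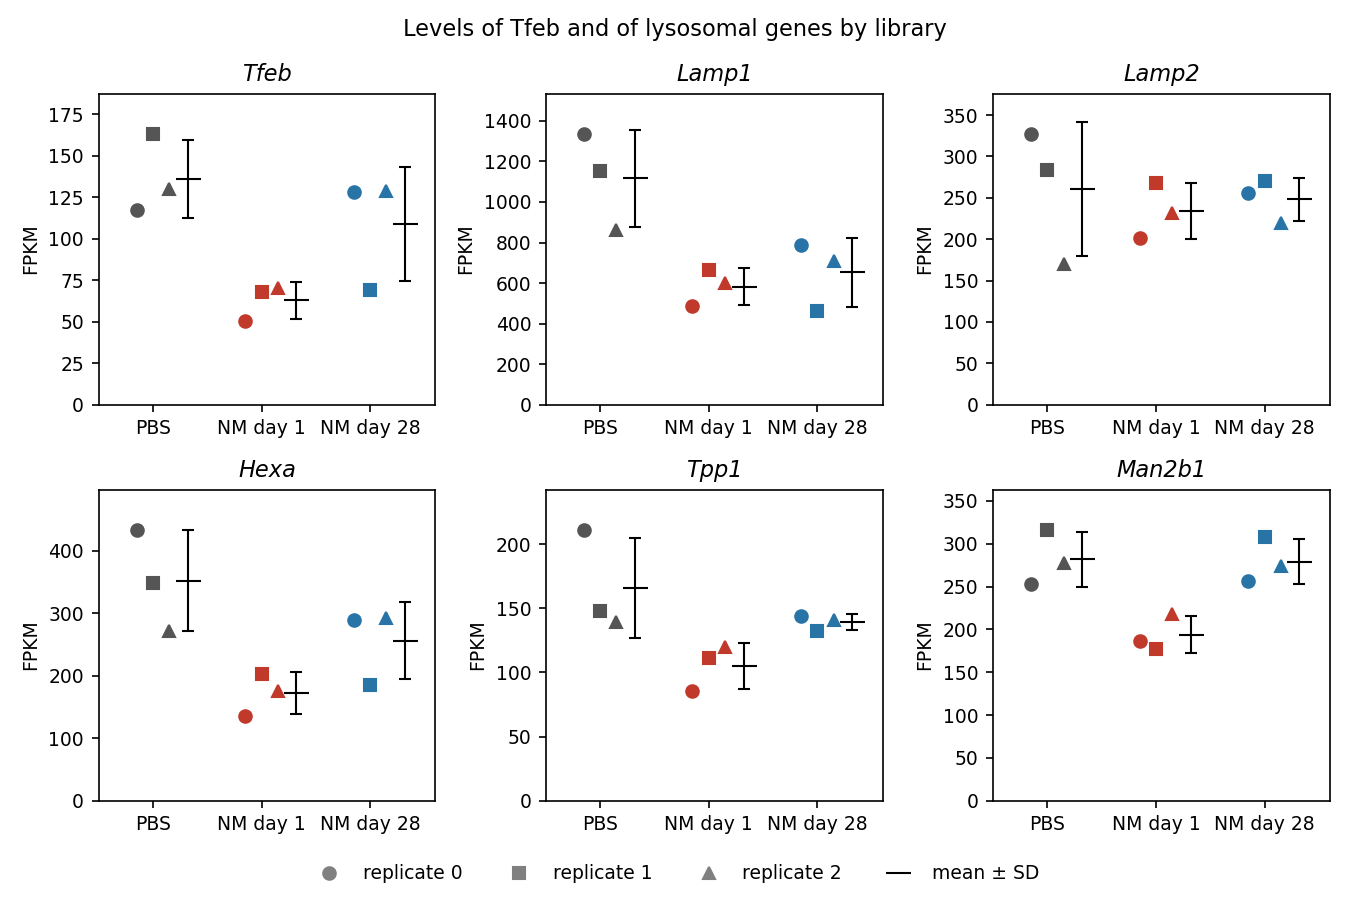
FPKM of the 6 genes in each of the 9 libraries (vertical axis, linear from 0), with symbols for replicates 0, 1 and 2 and the mean ± SD of each group of 3. Day 1 values lie below all PBS values for Tfeb, Lamp1, Hexa, Tpp1 and Man2b1 but not for Lamp2, and day 28 replicate 1 (blue square) lies low for Tfeb, Lamp1 and Hexa.

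The hydrolases showed the same direction with different sizes. Hexa encodes the alpha subunit of beta-hexosaminidase A, which removes a sugar from GM2 ganglioside. It had 433, 349 and 272 FPKM in PBS, 136, 203 and 176 at day 1, and 289, 185 and 293 at day 28. The day 1 libraries were all below PBS, and the day 28 libraries reached into the PBS range except for replicate 1. The mean went from 352 ± 80.7 to 172 ± 33.3 FPKM at day 1 (SD, n = 3), a log2 fold change of -1.02 with a standard error of 0.23 (limma, adjusted p = 0.0185), and the call ended without PBS_0 (0.0648), PBS_1 (0.0693) or NM1d_0 (0.1).

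Tpp1 encodes tripeptidyl peptidase 1, which trims peptides from their amino end. It had 211, 148 and 139.7 FPKM in PBS, 85.6, 111 and 119.8 at day 1, and 144, 132 and 141 at day 28. PBS_0 was far above the other PBS libraries, and the day 28 libraries lay close together between the groups' ranges or within that of PBS. The day 1 log2 fold change was -0.64 ± 0.19 (SE, n = 3 libraries a group), at the edge of the threshold (adjusted p = 0.0497 by limma). It did not pass in any of the 10 alternatives (adjusted p from 0.0504 to 0.116), nor when 1 of PBS_0, PBS_1, NM1d_0, NM1d_1, NM1d_2, NM28d_0 and NM28d_2 was left out (up to 0.213).

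Man2b1 encodes lysosomal alpha-mannosidase, which breaks down the mannose of glycoproteins. It had 253, 316 and 277 FPKM in PBS, 186, 177 and 218 at day 1, and 256, 308 and 274 at day 28. The day 28 values matched the PBS range closely, and the day 1 values lay below both groups. The day 1 log2 fold change was -0.54 ± 0.16 (SE, n = 3 libraries a group; adjusted p = 0.0496 by limma). Of the 10 alternatives only the fit without a filter kept the call (adjusted p = 0.0456, against 0.0512 to 0.201 in the others). Left out singly, 8 of the 9 libraries ended it, the exception being NM28d_1 (adjusted p from 0.0304 to 0.213).

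PBS_0, which had the greatest relative depth, was the highest PBS library for Lamp1, Lamp2, Hexa and Tpp1, and PBS_2 was the lowest for the same 4. NM1d_0, which had the least depth, was the lowest of its group for 5 of 6, Man2b1 being the exception. The part of depth in the levels was not tested. A ratio between 2 genes of one library is free of any scaling between libraries. The Lamp1 to Lamp2 ratio of FPKM was 4.08, 4.07 and 5.07 in PBS, 2.42, 2.48 and 2.57 at day 1, and 3.08, 1.7 and 3.23 at day 28. Every NM library was below every PBS library, and the day 1 values were almost equal. Taking each of the other 9884 genes over Lamp2, 5.34% had all day 1 ratios below PBS and 8.37% all day 28 ratios.

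The Hexa to Lamp2 ratio was likewise below PBS in each day 1 library, at 0.679, 0.756 and 0.758 against 1.32, 1.23 and 1.6. At day 28 it was 1.13, 0.683 and 1.34, so that replicate 1 had the day 1 value and the other libraries overlapped PBS. Lamp1 and Hexa kept a nearly fixed proportion in PBS (3.08, 3.3 and 3.17) and at day 1 (3.56, 3.27 and 3.39), and a lower one in all 3 day 28 libraries (2.73, 2.49 and 2.42). Man2b1 to Tfeb was 2.16, 1.95 and 2.12 in PBS and higher in each day 1 library (3.7, 2.62 and 3.09), with day 28 at 2, 4.45 and 2.12. Of the other genes taken over Hexa, 2.41% lay below PBS in every day 28 library. Of those taken over Tfeb, 79.8% lay above PBS in every day 1 library, so the Man2b1 to Tfeb ratio is no result about Man2b1. Of the 15 ratios between members, 7 did not overlap PBS at day 1 and 4 did not at day 28. The ratios share their genes and so are not independent, and no share over all pairs of genes was taken for these counts. Those shown were picked after their values were seen and are given as a description.

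**Figure D3:**
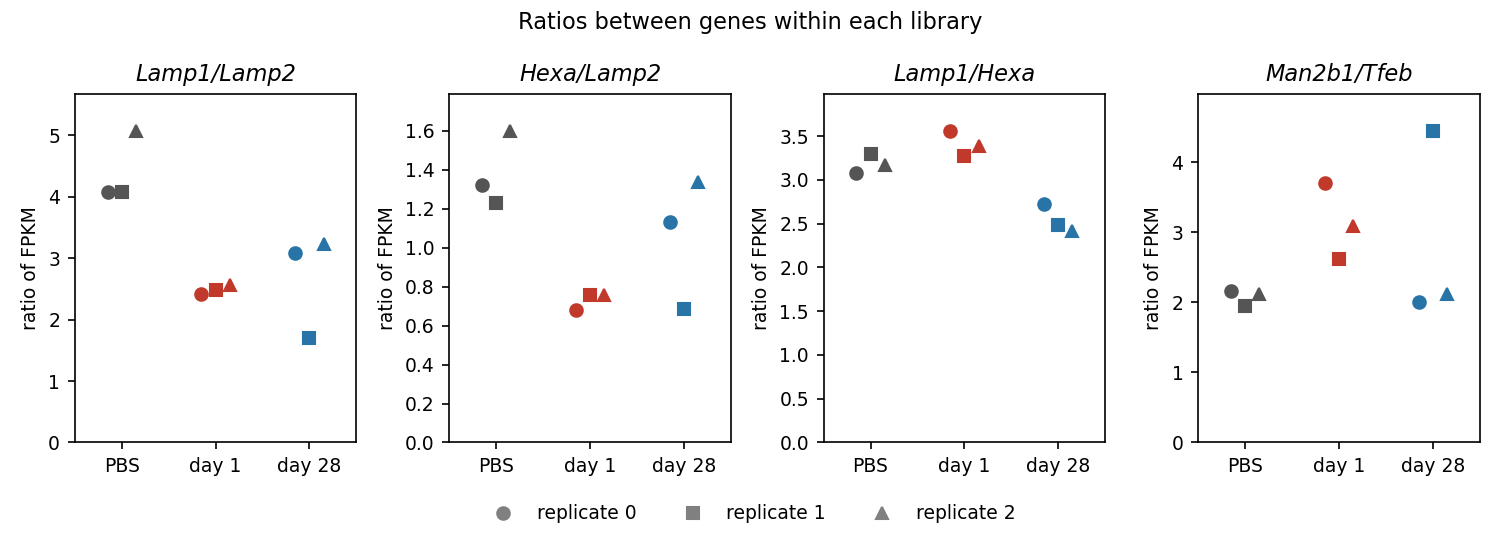
Ratio of FPKM between pairs of genes within each library (vertical axes, linear from 0), for Lamp1 to Lamp2, Hexa to Lamp2, Lamp1 to Hexa and Man2b1 to Tfeb, with symbols for replicates 0, 1 and 2. The Lamp1 to Lamp2 ratio lies between 1.7 and 3.23 in the NM libraries and between 4.07 and 5.07 in PBS.

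The second comparison asked what remained 28 days after NM, against the same PBS libraries. None of the 6 genes passed: limma called 0 lower and 0 higher, with 1, Lamp1, at an unadjusted p under 0.05 (2359 of all 9885 genes were). Of all genes, 3.98% were called lower and 3.07% higher. Lamp1 remained at 653 ± 171 against 1117 ± 238 FPKM (SD, n = 3), a log2 fold change of -0.79 with a standard error of 0.24 (limma, adjusted p = 0.0698), the only member whose groups did not overlap (14.4% of all genes had every day 28 library below PBS). It passed without PBS_2 (adjusted p = 0.0414).

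Hexa had a log2 fold change of -0.46 at day 28 (95% interval -0.97 to 0.04), Tfeb -0.37 (-0.89 to 0.16) and Tpp1 -0.23 (-0.64 to 0.17). All 3 intervals include 0. Man2b1 stood at -0.01 (-0.35 to 0.33) and Lamp2 at -0.02 (-0.51 to 0.47), and both turned slightly positive after median-of-ratios scaling and after quantile normalisation. The day 28 intervals of Man2b1, Tfeb and Hexa left out their day 1 estimates (-0.54, -1.11 and -1.02). That of Tpp1 ended at its day 1 estimate (both -0.64). Those of Lamp1 and Lamp2 held theirs. Without NM28d_1 the Tfeb log2 fold change was -0.07 and that of Hexa -0.245 (adjusted p = 0.855 and 0.525 by limma).

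The third comparison set the NM groups against each other. Man2b1 was higher at day 28 than at day 1, with 279 ± 26.2 against 194 ± 21.4 FPKM (SD, n = 3), a log2 fold change of 0.53 with a standard error of 0.16 (limma, adjusted p = 0.0483), and was the 1 member called of 6. Of all genes 4.75% were called higher and 6.88% lower. The Man2b1 call held in 1 of the 10 alternatives, the fit without a filter (adjusted p = 0.0424), and ended in 8 of the 9 fits that left out a library, all but that without PBS_2 (up to 0.159). Tfeb had a log2 fold change of 0.74 (95% interval 0.21 to 1.27, adjusted p = 0.0685) and Hexa 0.56 (0.05 to 1.07, adjusted p = 0.144). Both passed without NM28d_1, at 1.04 and 0.78 (adjusted p = 0.00624 and 0.037 by limma). Lamp1 differed least among the genes that had fallen, at 0.14 (-0.38 to 0.66, adjusted p = 0.758), and Tpp1 was at 0.41 (0.001 to 0.81, adjusted p = 0.185). The groups did not overlap for Tpp1 and Man2b1, as for 15.1% of all genes in that direction.

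**Figure D4:**
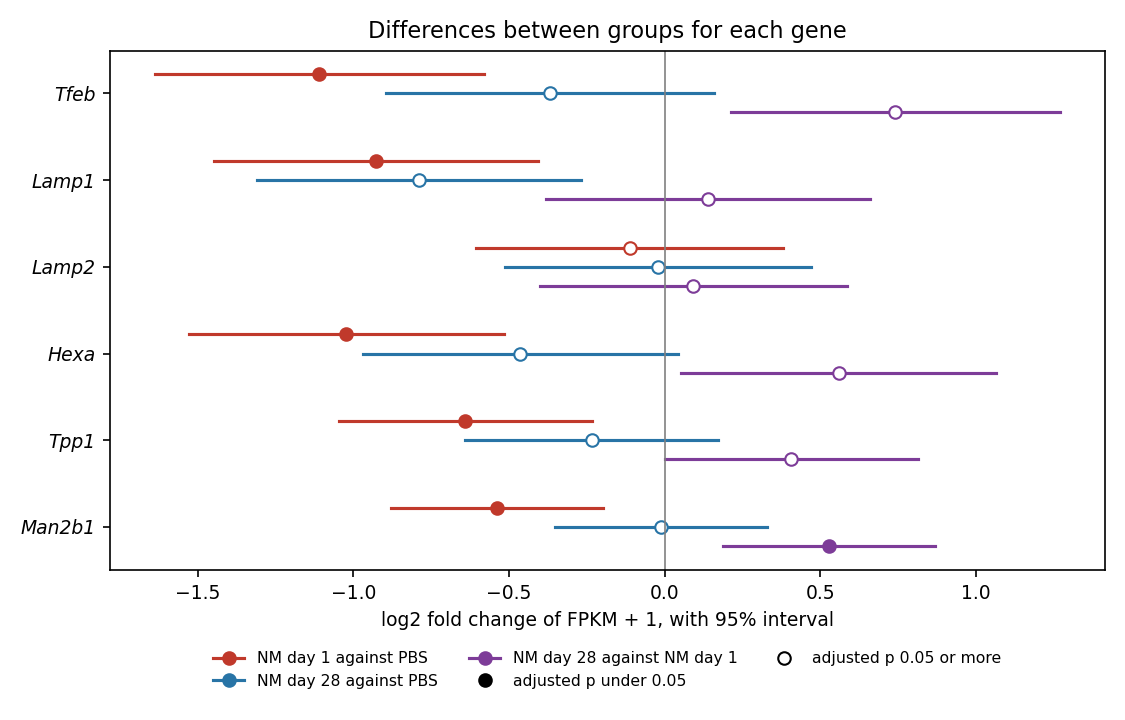
Log2 fold change of FPKM + 1 (horizontal axis) with its 95% interval from limma for each gene in the 3 comparisons, filled where the adjusted p was under 0.05. The day 1 estimates of the 5 filled genes run from -1.11 to -0.54, Lamp2 stays near 0 throughout, and Lamp1 alone keeps a day 28 interval below 0.

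The rest of the lysosome was read from 10 lists of its genes: 180 genes, 161 of them tested, the 6 members included. At day 1, 16 were lower (9.94%, against 4.58% of all genes) and 2 higher (1.24%, against 5.28%), and the median log2 fold change was -0.21 against -0.04 for all genes. Outside the 6 members 11 of 155 were lower (7.1%) and 2 higher, with a median of -0.19. The count of lower genes was 5 without PBS_0, 2 without PBS_1, 1 without NM1d_0, 6 without NM1d_1, 8 without NM1d_2, 25 without NM28d_1, and 7 after quantile normalisation. At day 28, 5 were lower (3.11%, against 3.98% of all genes) and 4 higher (2.48%, against 3.07%), with a median of -0.01. At day 28 compared with day 1, 13 were higher (8.07%, against 4.75%) and 3 lower (1.86%, against 6.88%), with a median of 0.15 against 0.00 for all genes. The day 28 counts rested on single libraries too: 1 gene was lower without PBS_0 or PBS_1, 2 without NM1d_2, NM28d_0 or NM28d_2, 3 without NM1d_1, and 8 without PBS_2. Genes higher at day 28 numbered 2 against PBS without PBS_1, PBS_2, NM28d_0 or NM28d_1. Between the NM groups, 6 were higher without PBS_1 or NM28d_2, 5 without any 1 of the NM1d libraries and 3 without NM28d_0, and 1 was lower without NM1d_1 or NM1d_2.

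Membrane proteins were lower in 4 of 23 at day 1 (17.4%, against 4.58% of all genes), and their median log2 fold change was -0.26. Besides Lamp1 they included Laptm5, a lysosomal protein of blood cells, at 764 ± 92.4 against 1434 ± 262 FPKM (SD, n = 3; -0.90 ± 0.21 SE, adjusted p = 0.021 by limma), and the nucleoside transporter Slc29a3 at 33.2 ± 7.13 against 58.2 ± 5.57 (adjusted p = 0.0137); the fourth was Tmem192. Laptm5 was lower at day 28 too (641 ± 125 FPKM, -1.16 ± 0.21, adjusted p = 0.00705), beside 1 rise, that of Laptm4b (8.28 ± 0.664 against 3.64 ± 0.481 FPKM). Cd68 and Cd63, membrane proteins with PBS levels close to that of Lamp1, were not called at day 1, with 813 ± 57.4 against 1028 ± 316 and 852 ± 118 against 1040.2 ± 322 FPKM. Between the NM groups 4 of 23 membrane genes were higher at day 28 (17.4%, against 4.75% of all genes). They were the metal transporter Slc11a1 (383 ± 5.75 against 216 ± 50.5 FPKM, adjusted p = 0.00941 by limma), Cln3 (0.68), Slc29a3 (0.61) and Npc1 (0.69).

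Among glycosidases 2 of 16 (12.5%, against 4.58% of all genes) were lower at day 1, the members Hexa and Man2b1. The median of the other 14 was -0.04. Manba, the beta-mannosidase, was at 20.8 ± 1.64 against 20.97 ± 6.08 FPKM at day 1 (adjusted p = 0.96).

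Of 8 proteases outside the cathepsins Tpp1 was the 1 lower at day 1, and legumain (Lgmn) had 197 ± 29.98 against 209 ± 80.9 FPKM (adjusted p = 0.964). Of 10 cathepsins 2 were higher at day 1, Ctsl (1.75) and Ctse (2.50), and 1 lower, Ctsf (-0.74). Ctsk and Ctse were higher at day 28 than in PBS (1.82 and 1.26), 20.0% of the list against 3.07% of all genes. Ctse was near the floor, at 0.612 ± 0.453 FPKM in PBS, 8.03 ± 1.84 at day 1 and 2.85 ± 1.01 at day 28 (SD, n = 3). Its day 28 estimate ran from 0.479 to 2.171 over the 10 alternatives, and 3 of them ended the call. Between the NM groups Ctsk was the 1 cathepsin higher at day 28 (1.53), and 3 were lower, Ctsl (-1.42), Ctse and Ctsw. Lipid enzymes, nucleases and activators had the lowest median of the 10 lists at day 1, -0.48, with 15 of 15 estimates below 0. Of them 2 were called lower (13.3%, against 4.58% of all genes). These were the lysosomal phospholipase Pla2g15, at 285 ± 67.97 against 576 ± 133 FPKM (SD, n = 3; -1.02 ± 0.21 SE, adjusted p = 0.0126 by limma), and the nuclease Dnase2 (-0.84, adjusted p = 0.0497). Pla2g15 was lower at day 28 as well (-0.82, adjusted p = 0.0384). Sulfatases had 0 of 6 called at day 1 by limma, with 0 at an unadjusted p under 0.05, against 2503 of all 9885 genes.

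Subunits of the V-ATPase, the proton pump that acidifies the lysosome, had a median of -0.01 at day 1. Limma called 0 of 18 in each comparison, with 1, 6 and 6 at an unadjusted p under 0.05. Over all 9885 genes tested, 2503, 2359 and 2663 were at an unadjusted p under 0.05 in the same comparisons. Sorting genes, which carry new enzymes from the Golgi to the lysosome, were lower in 4 of 16 at day 1 (25.0%, against 4.58% of all genes). The receptor sortilin (Sort1) led them, with 257, 273 and 234 FPKM in PBS and 103, 143 and 139 at day 1 (-0.99 ± 0.18 SE, adjusted p = 0.00515 by limma), followed by Ap3d1 (-0.57, adjusted p = 0.0245), Ap1m1 and Nagpa. Ap3d1, Gga1 and Ap1m1 were higher at day 28 than at day 1 (0.65, 0.55 and 0.51), 18.8% of the list against 4.75% of all genes. The mannose 6-phosphate receptors were not called at day 1 (M6pr -0.27, Igf2r -0.04; adjusted p = 0.40 and 0.933). Autophagy genes had 1 of 27 lower at day 1 (3.7%, near the 4.58% of all genes), Map1lc3a (-0.61, adjusted p = 0.0497 by limma). Their median log2 fold change at day 1 was -0.27, with 19 of 27 estimates below 0. Against PBS, 2 were lower at day 28 (7.41%, against 3.98% of all genes), Optn (-0.53) and Atg3 (-0.52). Between the NM groups 3 were higher at day 28 (11.1%, against 4.75% of all genes), Rab7a (0.61), Map1lc3b (0.57) and Atg9a (0.56).

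In the list of MiT/TFE factors and their control at the lysosome, Tfeb was the 1 of 22 called at day 1. That was 4.55%, near the 4.58% of all genes called lower. Lamtor2, a subunit of the Ragulator complex that anchors mTORC1 signalling at the lysosome, was the 1 lower at day 28 (278, 284 and 261 FPKM in PBS against 169, 91.5 and 191; adjusted p = 0.0328 by limma). Replicate 1 was again the lowest of the day 28 libraries. Mtor itself was at 14.5 ± 1.61 against 13.9 ± 2.91 FPKM at day 1 (SD, n = 3; adjusted p = 0.88).

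Many of these list calls rested on single libraries. At day 1 the calls of Laptm5, Pla2g15, Slc29a3, Ap3d1, Dnase2 and Map1lc3a ended without NM1d_0, and all of them but Pla2g15 also without PBS_1. Those of Laptm5, Ap3d1, Dnase2 and Map1lc3a ended without PBS_0, those of Laptm5, Dnase2 and Map1lc3a without NM1d_1, and those of Ap3d1, Dnase2 and Map1lc3a without NM1d_2. Dnase2 and Map1lc3a, called at an adjusted p of 0.0497 by limma, also missed without NM28d_0 or NM28d_2, at up to 0.186 and 0.213. In the 10 alternatives the call of Dnase2 ended in 8, that of Map1lc3a in 9 and that of Ap3d1 in 1, quantile normalisation. Sort1, Ctsl and Ctse at day 1 passed in every alternative and with any library left out.

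Against PBS at day 28, the calls that ended were those of Lamtor2 (without any 1 of the PBS libraries or NM1d_2), Laptm4b (without PBS_1), Ctse (without PBS_0, PBS_2, NM28d_0 or NM28d_1), Pla2g15 (without PBS_0, PBS_1, NM1d_1 or any 1 of the NM28d libraries), Optn (without any 1 of the PBS libraries, NM1d_2, NM28d_0 or NM28d_2) and Atg3 (without PBS_0, PBS_1, NM1d_1, NM1d_2, NM28d_0 or NM28d_2), with adjusted p of at most 0.143 by limma. Between the NM groups they were those of Cln3 and Rab7a (without NM1d_1, NM1d_2 or NM28d_0), Gga1 (without any 1 of the NM1d libraries, NM28d_0 or NM28d_2) and Map1lc3b (as Gga1, and without PBS_1), at most 0.144. Without NM28d_0 those of Slc29a3, Npc1, Ap1m1 and Atg9a ended too. In the 10 alternatives the day 28 calls against PBS ended in 5 for Pla2g15 and in 3 each for Lamtor2, Optn and Atg3. For day 28 against day 1 those of Gga1 ended in 2 and those of Map1lc3b in 1. Laptm5 and Ctsk at day 28 passed with any library left out. Between the NM groups so did Slc11a1, Ctsk and Ap3d1, higher at day 28, and Ctsl, lower at day 28.

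**Figure D5:**
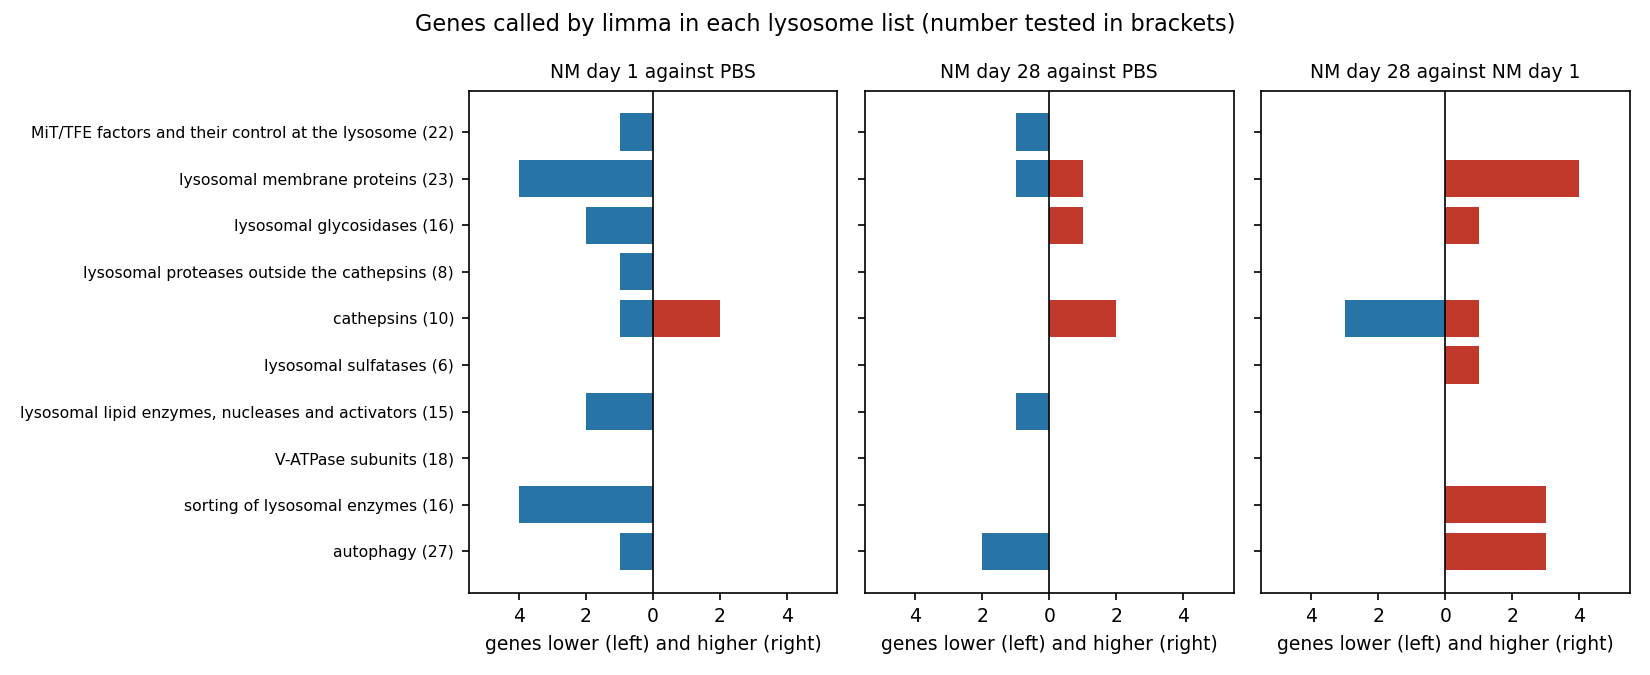
Number of genes called lower (bars to the left) and higher (bars to the right) by limma at an adjusted p under 0.05 in each of 10 lysosome lists, for the 3 comparisons, with the number tested in brackets. Lower calls prevail at day 1 (16 against 2), and higher calls prevail between day 28 and day 1 (13 against 3).

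CACGTG stood in 28 of 144 promoter windows of these lists (19.4%), in 9.76% of those of all genes tested and in 6.42% of the whole table; the difference was not tested. Of the 25 tested list genes with the hexamer, 3 were lower at day 1, and of the 104 without it, 10 were. Their median log2 fold changes were -0.145 and -0.215. Over all genes tested the shares lower at day 1 were 5.31% of 753 with the hexamer and 4.68% of 6962 without it.

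The genes whose profile over the 9 libraries came nearest to each member were ranked by the root mean square difference of centred log2(FPKM + 1) among 7366 genes with a mean of at least 5 FPKM. Nearest to Tfeb were Abhd17a (0.13), Aup1 (0.14) and Bcl7c (0.15), and nearest to Lamp1 were Rbm42 (0.12), Trappc6a (0.13) and Ltbr (0.13). Scamp1, Tm9sf2 and Ppp2cb came nearest to Lamp2 (0.12 to 0.14), and Spns1, Vat1 and Them6 to Hexa (0.15 to 0.16). Foxo4, Fth1 and Plod1 came nearest to Tpp1 (0.12 to 0.13), and Atg9a, Ap1m1 and Psmg4 to Man2b1 (0.07 to 0.09). Among the members themselves Lamp1 was the closest to Hexa (0.19, rank 13 of 7366), followed by Tpp1 at rank 50 and Tfeb at rank 70. The difference between Lamp2 and Tfeb was 0.58, which put Tfeb at rank 6608 of 7366 from Lamp2 and Lamp2 at rank 3365 from Tfeb.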

How the data were processed

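Libraries of macrophage RNA were made with a TruSeq kit and read as 75-base pairs, per the labels' protocols. TopHat, Cuffdiff and the rat build rn4 are named in the submitters' processing notes, without versions. Deposited values were the authors' FPKM for 18197 RefSeq transcripts. RefSeq's GRCr8 gene table named 17189 of them (94.5%). FPKM were summed by symbol to 17109 genes, and the 9885 with at least 1 FPKM in at least 3 of 9 libraries were tested, among them all 6 members. The test was limma 3.58.1 (R 4.3.3; lmFit, eBayes with trend) on log2(FPKM + 1), a scale that understates changes of low genes, with 3 group means, 95% intervals and Benjamini-Hochberg adjustment over all genes tested. It was tested on simulated data. Other steps ran in Python 3.11.15 with pandas 2.3.3, numpy 2.4.6 and matplotlib 3.10.9.

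The members and gene lists were chosen with earlier results of these data known. Named were all members, up to 2 called genes of smallest p per list and comparison, and the 3 genes nearest to each member in profile; further list genes were picked after their values were seen. Some list genes that enter the counts are not reported here by name. Coordinates are those of the GRCr8 promoter table. Alternatives tried were other pseudocounts (0.1 and 5), dropping the filter or raising it to 5 FPKM, scaling by median of ratios or by quantiles, testing transcripts without summing, blocking on the replicate number, fitting the 6 compared libraries alone, robust eBayes, and leaving out each library.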

Additional observations from a re-analysis of the deposited data

Results flagged for a closer look

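The effects of NM at day 28 and at day 1, each against the same PBS libraries, differed for 1 of the 6 genes by a test of the difference itself: Man2b1 was higher at day 28 than at day 1 by 0.528 on the log2 scale (SE 0.157, adjusted p = 0.0483 by limma over all genes), in 3 of 3 day 28 libraries against 3 of 3 day 1 libraries. For Tfeb, Lamp1, Lamp2, Hexa and Tpp1 the same test gave adjusted p of 0.0685, 0.758, 0.837, 0.144 and 0.185. Of all genes tested, 4.75% were called higher and 6.88% lower, and for 15.1% every day 28 library lay above every day 1 library. The Man2b1 call ended in 9 of the 10 alternatives and in 8 of the 9 fits that left out a library.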

How the results depend on the processing

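With 3 libraries a group and no fragment counts, small changes were hard to call. At day 1 the members called lower fell from 5 to 3 in each of the 10 alternatives, the replicate block included, and ran from 0 to 5 with a library left out. At day 28 they ran from 0 to 1 lower with a library left out. Between the NM groups members called higher went from 1 to 0 in 9 of the 10, all but the fit without a filter (so also under the replicate block), and ran from 0 to 2 with a library left out.

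Lysosome list genes lower at day 1 numbered 16, 7 after quantile normalisation and 1 to 25 with a library left out. At day 28 those lower numbered 5, 3 with no filter, 1 after quantile normalisation, 2 with the replicate block, 1 with only the 6 libraries compared and 1 to 8 with a library left out; those higher numbered 4, 2 with no filter, 7 after quantile normalisation, 2 with only the 6 libraries compared and 2 to 4 with a library left out. Between the NM groups 3 were lower (1 with a pseudocount of 0.1, 1 to 3 with a library left out) and 13 higher (8 with only the 6 libraries compared, 3 to 18 with a library left out). Over all genes, 453 were lower and 522 higher at day 1 (324 higher with a filter of 5 FPKM; 66 to 718 and 252 to 656 with a library left out). At day 28, 393 were lower and 303 higher (212 lower with only the 6 libraries compared; 117 to 426 and 154 to 367), and between the NM groups 680 lower and 470 higher (408 lower with a filter of 5 FPKM; 394 to 775 and 225 to 628). The causes were not tested, beyond the fewer genes or samples that some settings use.

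Signs turned for uncalled values near 0. Lamp2 at day 1 was 0.113 after quantile normalisation and 0.079 without PBS_0 (lowest -0.391, with a library left out). At day 28 Lamp2 was 0.003 after median-of-ratios scaling, 0.188 after quantile normalisation, and 0.171, 0.068 and 0.066 without PBS_0, PBS_1 and NM28d_2 (lowest -0.299). Man2b1 was 0.012 and 0.168 under those scalings, and 0.076, 0.049 and 0.002 without PBS_1, NM28d_0 and NM28d_2 (lowest -0.087). Between the NM groups Lamp2 was -0.012 without NM1d_0 (highest 0.196) and Lamp1 -0.014 without NM28d_0 (highest 0.373). The labels gave same-numbered libraries no link beyond the number. The correlations of their deviations from group means ran from -0.104 to 0.196 over 9 pairs, with 3 over 0.1. Over 18 other pairs they ran from -0.26 to 0.248, with 4 over 0.1. So few pairs cannot show whether same-numbered libraries were handled together.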
